A study of Mus musculus with 12 samples.

Results

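The NALCN channel complex was measured in mouse lung tumors and in normal mouse lung by RNA sequencing. Its 5 genes were Nalcn, Fam155a, Fam155b, Unc79 and Unc80, out of 30399 genes in the deposited table. Fam155a was selected on its rise in these same tumors, and the others were chosen by their membership of its complex. All 5 were in the table, and all 5 had the mean normalized count of at least 1 that was asked for in the test across genes. Fam155a and Fam155b are now also named Nalf1 and Nalf2, and the gene table used here lists Fam155b under its older name Tmem28.

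There were 12 samples: 5 carry the tissue label normal lung, the other 7 the label tumor. The series title names nonviral CRISPR/Cas9 mutagenesis as the way the lung cancer models were made. Which genes were edited, the strain, the age of the mice and any treatment of the mice behind the normal lungs are not given in the sources used here. The tumor titles carry the number 153 (tumor 1), 156 (tumor 2), 159 (tumors 3 and 4) or 201 (tumors 5, 6 and 7), so that 7 tumors have 4 distinct numbers. The titles of tumors 1 and 7 hold a Spanish word for trachea and those of tumors 3, 4, 5 and 6 the word for lung, while that of tumor 2 holds neither.

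NALCN is a cation channel with the same overall build as voltage-gated sodium and calcium channels, but it conducts at rest and carries the background sodium leak that sets the resting potential of many neurons and endocrine cells. NALCN is the pore. FAM155A and FAM155B are membrane proteins that bind its extracellular side, and 1 of them is needed for the channel to reach the membrane and conduct. UNC79 and UNC80 are very large proteins that bind each other and the intracellular side of the pore, and UNC80 is also the link through which receptor-activated Src kinases act on it. The complex is best known from neurons, among them brainstem neurons that drive breathing.

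The promoters are shown because the results turn on the transcript levels of these genes. RefSeq's promoter table for GRCm38.p6 holds 4 of the 5 members, namely Nalcn, Fam155b, Unc79 and Unc80. Each sequence is the 250 bases before the annotated start, 5′ to 3′ in the direction of the gene. Capitals mark matches to 1 of 3 motifs: the E-box CAGCTG, a motif of basic helix-loop-helix factors, and CAGCACC and GGACAGC, the left and right arms of the site bound by REST, a repressor of neuronal genes.
Nalcn, chr14:123627145-123627394, minus strand: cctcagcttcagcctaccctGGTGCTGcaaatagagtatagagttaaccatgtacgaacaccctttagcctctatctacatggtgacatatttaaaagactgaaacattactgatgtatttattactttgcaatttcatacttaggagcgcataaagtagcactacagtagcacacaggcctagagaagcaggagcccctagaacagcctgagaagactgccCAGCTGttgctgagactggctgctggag
Fam155b, chrX:99819914-99820163, plus strand: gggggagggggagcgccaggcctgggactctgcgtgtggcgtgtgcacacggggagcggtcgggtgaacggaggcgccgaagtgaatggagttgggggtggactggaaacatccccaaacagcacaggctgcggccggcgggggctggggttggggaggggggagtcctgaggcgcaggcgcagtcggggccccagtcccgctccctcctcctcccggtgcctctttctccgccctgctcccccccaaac
Unc79, chr12:102948609-102948858, plus strand: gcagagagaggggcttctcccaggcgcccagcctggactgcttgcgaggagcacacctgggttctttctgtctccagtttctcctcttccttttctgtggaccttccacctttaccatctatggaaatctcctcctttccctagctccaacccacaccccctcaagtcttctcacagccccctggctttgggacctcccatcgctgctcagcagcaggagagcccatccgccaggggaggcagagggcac
Unc80, chr1:66467684-66467933, plus strand: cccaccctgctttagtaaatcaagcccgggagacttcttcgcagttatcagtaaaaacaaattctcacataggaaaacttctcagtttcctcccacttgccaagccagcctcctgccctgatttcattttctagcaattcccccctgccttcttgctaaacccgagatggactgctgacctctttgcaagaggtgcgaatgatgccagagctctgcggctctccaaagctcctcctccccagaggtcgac
Both strands were searched over the 300 bases from 250 before to 50 after the start, and no motif overlapped another. The Nalcn promoter held CAGCTG, whose first base lies at -28 from the start, and CAGCACC on the opposite strand (read here as GGTGCTG) at -230. The other windows held none of the 3 letter strings. Of 32851 mouse promoters of the same length, 16.3% held CAGCTG, 7.14% held CAGCACC and 6.56% held GGACAGC. A match is a description of letters, not a binding site. The windows differ in base composition: GC content was 70.0% at Fam155b, 59.7% at Unc79, 52.7% at Unc80 and 48.3% at Nalcn, against a median of 52.7% over all promoters.

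Levels below are normalized counts, that is, reads per gene divided by a size factor of the library. Normal lungs had 11126432 to 17032234 reads assigned to genes, tumors 13093843 to 24217633. A count of 3 reads, taken as the floor of detection, corresponds to a normalized count of at most 4.85 in normal lung and 3.57 in tumors. Floors and counting (Poisson) intervals cover counting error only, and reads are not independent molecules. The intervals on ratios of tumor to normal lung come from the pooled normal lung reads alone. They hold the tumor mean fixed and leave out the spread between samples, so they are too narrow for the ratio between the groups. Each of the 8 lung epithelial markers checked separated the groups, with all tumors below: their summed level was 284415 to 509724 in normal lung against 481 to 3216. The 10 neuroendocrine markers separated them the other way, with summed levels of 262 to 423 in normal lung against 41263 to 149692. In whole tissue, fewer cells of a type and less RNA per cell cannot be told apart.

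Nalcn, the pore, was low in normal lung and high in all tumors. Its normalized counts were 29.7, 31.2, 21.0, 31.0 and 20.7 in normal lungs 1 to 5. They were 1086, 1347, 1158, 1622, 1677, 1210 and 818 in tumors 1 to 7. The groups did not overlap, and the lowest tumor stood 26.2 times above the highest normal lung. The mean was 26.7 ± 5.39 (SD, n = 5) in normal lung and 1274 ± 303 (SD, n = 7) in tumors, a difference of 5.51 (SE 0.21) on the log2(normalized count + 1) scale. The 105 reads behind the normal level, pooled over the 5 libraries, put the ratio of the tumor mean to it at 47.4, with an exact 95% Poisson interval of 39.1 to 57.9. This contrast served to pick the complex, so its values for the members are given without a test.

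Fam155a, the ancillary subunit, was near the detection floor in normal lung and among the abundant transcripts in tumors. It had 0 reads in normal lung 2 and 3 to 9 reads in each of the others, which gives normalized counts of 5.16, 0, 4.85, 12.7 and 5.75. In tumors 1 to 7 its normalized counts were 9225, 5548, 9228, 12460, 13392, 15372 and 5512. Tumors 2 and 7 were the lowest and nearly equal, and even they stood 434 times or more above the highest normal lung. The mean was 5.69 ± 4.54 (SD, n = 5) in normal lung and 10105 ± 3819 (SD, n = 7) in tumors, a log2 difference of 10.86 (SE 0.51), which ranked 8 among the 23674 genes compared. The 21 reads in all normal lungs give a ratio of 1878 with an exact 95% Poisson interval of 1229 to 3034, so the size of this ratio is limited by the reads in normal lung.

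Fam155b, its paralogue, was well above the floor in normal lung and moderately higher on average in tumors. Its normalized counts were 249, 200, 199, 197 and 163 in normal lungs 1 to 5. They were 382, 375, 795, 577, 328, 662 and 238 in tumors 1 to 7. Tumor 7 lay below normal lung 1, so the groups overlapped, whereas with every library scaled to the same total the lowest tumor (258) lay above the highest normal lung (236). The means were 202 ± 30.6 (SD, n = 5) and 480 ± 202 (SD, n = 7), a log2 difference of 1.15 (SE 0.28) and a ratio of 2.39 (exact 95% Poisson interval for the 784 reads in normal lung, 2.23 to 2.57). Fam155b lies on the X chromosome. The mean log2 level of 4 Y-linked genes was 9.18 to 9.43 in 4 normal lungs and 9.14 in tumor 1, but 0.00 in normal lung 3 and 0.00 to 1.48 in tumors 2 to 7. Normal lung 3 and tumor 1, each on the minority side of its group, had 199 and 382 normalized counts of Fam155b, both within the range of their groups. The labels give no sex. The split by Y-linked genes nearly follows the groups, so sex can hardly be told apart from group for any gene compared here. This holds for the other members and for the gene lists below. The part of sex in the differences was not tested.

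Unc79 and Unc80, the large intracellular subunits, were both higher in all tumors than in any normal lung. Unc79 had normalized counts of 126, 138, 63.0, 49.4 and 86.2 in normal lungs 1 to 5 and of 1848, 1416, 1419, 1852, 2089, 2150 and 902 in tumors 1 to 7. Its lowest tumor stood 6.56 times above its highest normal lung. The mean was 92.5 ± 38.6 (SD, n = 5) in normal lung and 1668 ± 445 (SD, n = 7) in tumors, a log2 difference of 4.21 (SE 0.29). Unc80 had normalized counts of 25.8, 12.9, 6.46, 8.46 and 21.8 in normal lungs 1 to 5 and of 1217, 683, 986, 929, 1599, 1380 and 598 in tumors 1 to 7. Its lowest tumor stood 23.2 times above its highest normal lung. The mean was 15.1 ± 8.42 (SD, n = 5) in normal lung and 1056 ± 364 (SD, n = 7) in tumors, a log2 difference of 6.13 (SE 0.36). Against the pooled reads of normal lung, 375 for Unc79 and 61 for Unc80, the ratios were 17.4 (exact 95% Poisson interval 15.7 to 19.3) and 67.6 (52.6 to 88.3).

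All tumors stood above all normal lungs for 4 of the 5 members, Fam155b being the exception, and 20.1% of the 23674 genes showed the same separation. By limma with Benjamini-Hochberg adjustment, 31.4% of these genes were called higher (adjusted p under 0.05) and 30.1% lower in tumor. Neuroendocrine markers were high in the same tumors. Their part in the members' levels was not tested.

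**Figure D1:**
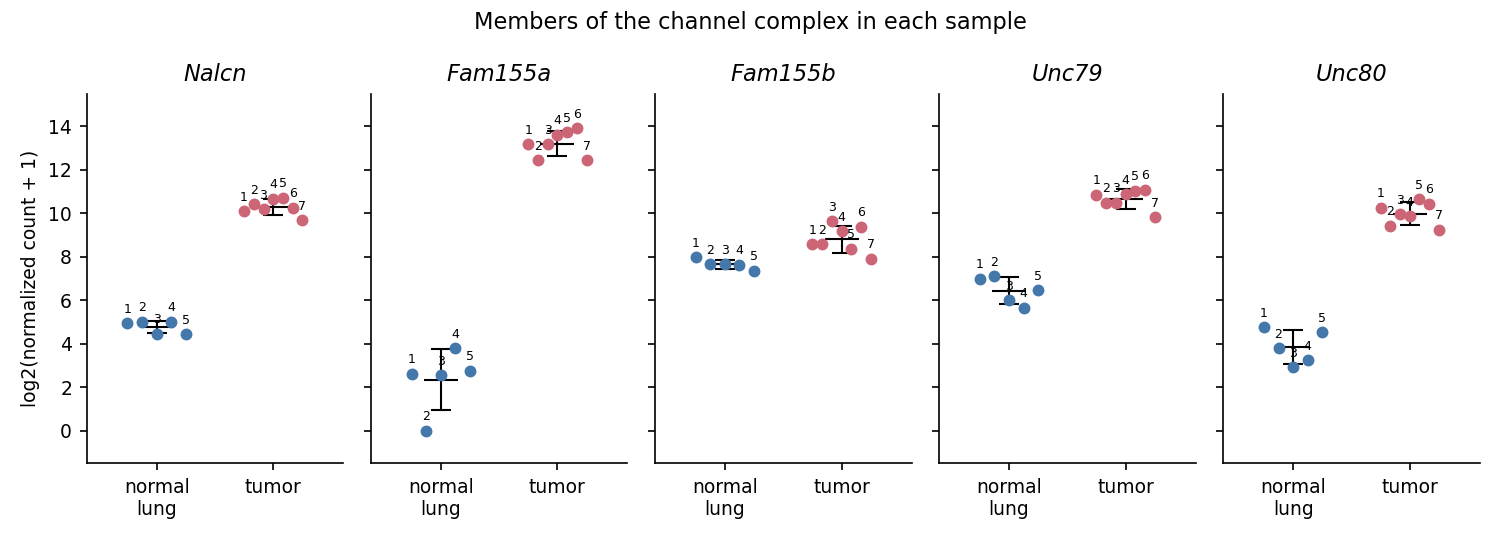
Level of each member in each sample, as log2(normalized count + 1) on a shared axis. Points are samples with their replicate number, long bars are group means and whiskers are 1 SD. Fam155a moves from a mean of 2.34 in normal lung to 13.20 in tumors, while the points of Fam155b in tumor 7 and normal lung 1 overlap.

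Members can be compared with each other only per length, and levels were therefore divided by the exon length of each gene in GENCODE M21. In normal lung, Fam155b was the most abundant member at 51.6 ± 7.82 normalized counts per kb (SD, n = 5). Unc79 followed at 6.49 ± 2.70 and Nalcn at 1.82 ± 0.366. Unc80 at 1.05 ± 0.583 and Fam155a at 0.870 ± 0.695 did not differ beyond their spread. The ranges of Unc80 and Nalcn over the normal lungs overlapped. Within libraries, Unc80 lay above Nalcn in 1 of 5 normal lungs per kb of exon and in 0 of 5 per kb of the longest coding transcript. In tumors, Fam155a led at 1546 ± 584 per kb (SD, n = 7), above 98.8% of the genes with a length. The medians of the others were 130 for Unc79 (63.3 to 151), 97.8 for Fam155b (60.9 to 203), 82.2 for Nalcn (55.6 to 114) and 68.4 for Unc80 (41.5 to 111), and the ranges of neighbours in this order overlapped. Within libraries, Unc79 lay above Nalcn in 7 of 7 tumors per kb of exon but in 2 of 7 per kb of the longest coding transcript, whereas it lay above Unc80 in 7 of 7 with either length. Fam155b was the highest member in 5 of 5 normal lungs and Fam155a in 7 of 7 tumors, whether exon length or the longest coding transcript was used, whereas the order of the others in tumors changed with the length.

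Which of the ancillary subunits led thus differed between the groups. Fam155a made up 0 to 3.70% of the summed per-kb level of Fam155a and Fam155b in normal lung (median 1.44%). In tumors it made up 87.4 to 96.1% (median 93.3%), with the lowest share in tumor 3, which had the most Fam155b. With the longest coding transcript as the length, the shares were 0 to 6.90% and 93.1 to 97.9%. The ratio of Fam155a to the pore Nalcn per kb was 0 to 0.921 in normal lung and 9.27 to 28.6 in tumors (median 17.9). That of Fam155b to Nalcn was 24.0 to 35.6 in normal lung and 0.737 to 2.58 in tumors (median 1.32). The last ratio depends on the length chosen, and per kb of the longest coding transcript it was 11.6 to 17.2 in normal lung and 0.357 to 1.25 in tumors.

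Of the intracellular subunits, Unc79 had a lower median ratio to the pore in tumors than in normal lung and Unc80 a higher one, with either length. Per kb of exon, the ratio of Unc79 to Nalcn was 1.64 to 4.55 in normal lung (median 4.30) and 1.08 to 1.83 in tumors (median 1.26), and the ranges overlapped through normal lung 4. The ratio of Unc80 to Nalcn was 0.278 to 1.08 in normal lung (median 0.422) and 0.517 to 1.16 in tumors (median 0.869), which overlap widely. Per kb of the longest coding transcript, the medians in normal lung and tumors were 3.34 and 0.983 for Unc79 to Nalcn and 0.216 and 0.446 for Unc80 to Nalcn. Between the partners themselves, Unc79 to Unc80 was 3.99 to 10.8 in normal lung and 1.32 to 2.10 in tumors, with no overlap. Ratios of Unc80 in normal lung rest on 4 to 20 reads a library.

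**Figure D2:**
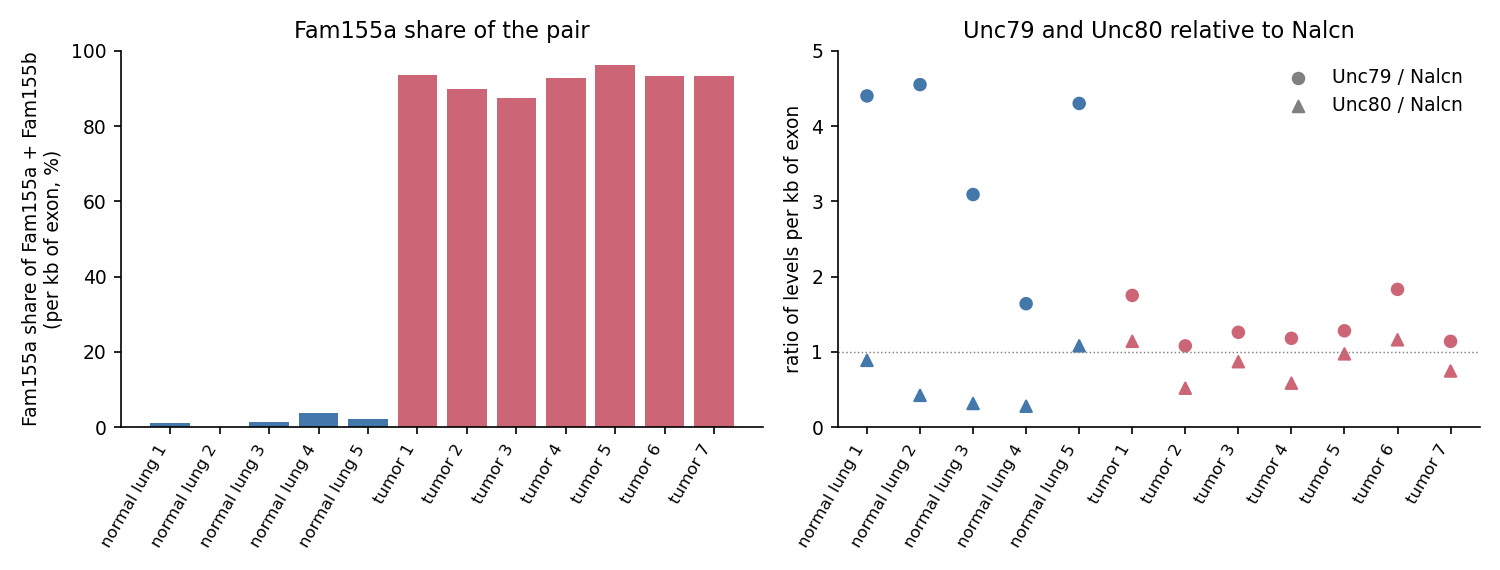
Left, bars give the share of Fam155a in the summed level of Fam155a and Fam155b per kb of exon, in percent, for each sample. Right, points give the ratios of Unc79 and of Unc80 to Nalcn per kb of exon in each sample, with a dotted line at a ratio of 1. The Fam155a share is at most 3.70% in normal lung and at least 87.4% in tumors.

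Among tumors, the members varied by 2.05-fold (Nalcn) to 3.34-fold (Fam155b) between the highest and the lowest. The SD of log2(normalized count + 1) over the 7 tumors was 0.36 for Nalcn, close to the median of 0.38 for genes within 0.5 log2 units of its level. It was 0.59 for Fam155a (median of like genes 0.43), 0.62 for Fam155b (0.43), 0.44 for Unc79 (0.37) and 0.52 for Unc80 (0.38). Nalcn was thus the steadiest member and Fam155b the most variable. In normal lung the SD was 0.29 for Nalcn and 0.21 for Fam155b, both under the medians of 0.50 and 0.28 for like genes. It was 0.63 for Unc79 (0.37), 0.79 for Unc80 (0.59) and 1.40 for Fam155a (0.79).

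Tumor 7 had the lowest level of all 5 members. The same tumor had the lowest summed neuroendocrine markers (41263) and the highest summed markers of fibroblasts and smooth muscle (32202), cardiac muscle (40942) and leukocytes (7206). In the other tumors these sums were 53202 to 149692 for neuroendocrine markers, and at most 18579, 2957 and 1811 for the other lists. Their part in the low levels of tumor 7 was not tested. Tumor 2, which had the next lowest neuroendocrine sum (53202), was the next lowest for Fam155a, Unc79 and Unc80 but ranked 3 of 7 for Nalcn. At the other end the orders differed. Tumor 4, with the highest neuroendocrine sum (149692), ranked from 2 to 5 over the members. Tumor 3, with the next highest (146595), ranked 1 for Fam155b but 4 or 5 for the other members. The highest tumor differed by member: tumor 5 for Nalcn and Unc80, tumor 6 for Fam155a and Unc79, and tumor 3 for Fam155b.

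Tumors that share a title number were not closer to each other throughout. The 2 tumors numbered 159 differed by 1.40-fold for Nalcn, 1.35-fold for Fam155a, 1.38-fold for Fam155b, 1.31-fold for Unc79 and 1.06-fold for Unc80. The 3 tumors numbered 201, which include tumor 7, spanned 2.05-fold for Nalcn, 2.79-fold for Fam155a, 2.78-fold for Fam155b, 2.38-fold for Unc79 and 2.67-fold for Unc80. For 4 of the 5 members this equals the whole range over 7 tumors. The other tumors with this number, 5 and 6, had normalized counts of 1677 and 1210 for Nalcn and 13392 and 15372 for Fam155a. They had 2089 and 2150 for Unc79 and 1599 and 1380 for Unc80, but 328 and 662 for Fam155b.

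The words in the titles allow a comparison that did not choose the members, trachea-titled tumors (n = 2) against lung-titled tumors (n = 4). All 5 members were lower on average in the trachea-titled tumors, and none passed the test. The log2 difference, trachea minus lung, was -0.57 (SE 0.25) for Nalcn, with an adjusted p of 0.574 in limma. It was -0.80 (SE 0.30) for Fam155a, with an adjusted p of 0.519 in limma. The differences were -0.89 (SE 0.40) for Fam155b, -0.52 (SE 0.33) for Unc79 and -0.48 (SE 0.36) for Unc80, with limma adjusted p of 0.574, 0.666 and 0.713. Of 23282 genes tested, 0 were called (0%), 2086 had an unadjusted p under 0.05, and the smallest adjusted p was 0.249. On the recovered reads of 5 of these tumors (without tumor 3), DESeq2 called 293 genes and edgeR 0, and no member was called by either tool. Without tumor 7 the differences were -0.36 for Nalcn, -0.43 for Fam155a, -0.55 for Fam155b, -0.00 for Unc79 and 0.03 for Unc80, and 290 genes were called by limma. Without tumor 1 they were -0.77, -1.17, -1.23, -1.04 and -0.99, and 0 genes were called. Either fit has 1 trachea-titled tumor, which is assumed to vary like the lung-titled ones. The sizes therefore depend on which trachea-titled tumor is used.

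**Figure D3:**
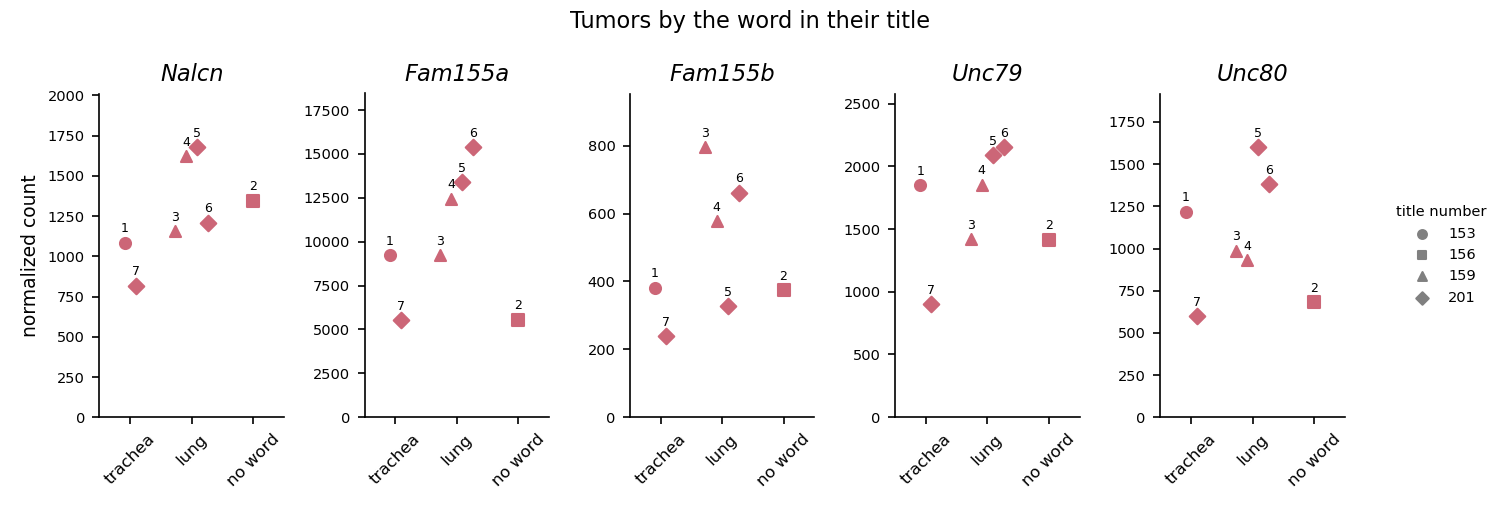
Normalized count of each member in the 7 tumors, placed by the word in the title, with marker shapes for the title number and the tumor's replicate number beside each point. Tumor 7 (trachea, number 201) is the lowest point in all panels. Each panel has its own linear axis from 0.

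Receptors and kinases that act on the NALCN complex were set beside it as a list of 11, all of them tested. This list and those that follow were chosen with earlier results of these data known. Their shares and p-values are therefore descriptions, not independent support. In tumor against normal lung, 4 were higher and 0 lower by limma (adjusted p under 0.05), a share of 36.4% beside the 31.4% of all genes, and the median log2 difference was 0.46 beside 0.04 for all genes. Drd2, the dopamine D2 receptor, ran from 0 to 6.45 normalized counts in normal lung, against 186 to 1239 in tumors, a log2 difference of 7.22 (SE 0.58, limma adjusted p 2.25e-07). Casr, the calcium-sensing receptor, ran from 3.45 to 9.87 and from 16.7 to 1376, a difference of 5.56 (SE 0.89, limma adjusted p 0.000123). Gabbr2, a subunit of the GABA-B receptor, ran from 2.30 to 19.4 and from 63.9 to 581, a difference of 4.77 (SE 0.61, limma adjusted p 1.65e-05). Sik3, a salt-inducible kinase, rose by only 0.74 (SE 0.19, limma adjusted p 0.00471), and its groups overlapped. The count of lower genes is not firm: without the trachea-titled tumors Tacr1, Src and Sik1 were called lower, which makes 3 of 11.

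The pore-forming relatives of NALCN, the voltage-gated sodium and calcium channel alpha subunits, were higher more often than lower. Of 19, all tested, 11 were higher and 2 lower, shares of 57.9% and 10.5% beside 31.4% and 30.1% of all genes, with a median log2 difference of 1.05. Scn8a, a neuronal sodium channel, ran from 9.68 to 35.6 normalized counts in normal lung, against 1500 to 3423 in tumors, a log2 difference of 7.07 (SE 0.31, limma adjusted p 1.28e-09). Scn1a, another neuronal sodium channel, had 2 reads in all normal lungs and 94.3 to 647 normalized counts in tumors, and the ratio of 740 has a counting interval of 205 to 6113. Scn4a, the sodium channel of skeletal muscle, fell from 33.9 to 138 normalized counts to 7.28 to 45.3, a difference of -1.76 (SE 0.46, limma adjusted p 0.00485). Cacna1i, a T-type calcium channel, fell by 1.43 on the log2 scale (SE 0.43, limma adjusted p 0.0109), with overlapping groups. The median depends on which weakly expressed channels are tested and was 3.34 with a mean of at least 10 and 3.62 by edgeR.

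Potassium leak channels of the K2P family, which carry the outward leak opposite to that of NALCN, moved in both directions. Of 14, all tested, 5 were higher and 4 lower, shares of 35.7% and 28.6% that lie near those of all genes, with a median log2 difference of 0.73. Kcnk16 had 2 reads in all normal lungs and 132 to 419 normalized counts in tumors, a ratio of 458 with a counting interval of 127 to 3785. Kcnk9 had 1 read in normal lung and 8.23 to 226 normalized counts in tumors, a ratio of 364 whose counting interval of 65.3 to 14377 is wide. Kcnk5 fell from 200 to 302 normalized counts to 10.9 to 96.7, a log2 difference of -3.12 (SE 0.41, limma adjusted p 2.19e-05). Kcnk6 fell by 3.05 on the log2 scale (SE 0.78, limma adjusted p 0.00395), but the tumors spanned 14.9 to 913 and edgeR did not call it (-1.52, adjusted p 0.105). With edgeR or DESeq2, 2 of the 14 were lower in place of 4, and DESeq2 gave Kcnk6 no adjusted p.

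Cation channels of other families that can carry background or pacemaker current formed the last list. Of 12, all tested, 8 were higher and 2 lower, shares of 66.7% and 16.7% beside 31.4% and 30.1% of all genes, and the median log2 difference was 1.89 beside 0.04. Hcn4, a pacemaker channel opened by hyperpolarization, ran from 11.3 to 32.2 normalized counts in normal lung, against 689 to 3147 in tumors, a log2 difference of 6.28 (SE 0.41, limma adjusted p 3.14e-08). Trpc6, a receptor-operated calcium-permeable channel, fell from 291 to 561 normalized counts to 2.97 to 62.3, a difference of -4.49 (SE 0.58, limma adjusted p 1.79e-05). Trpm4, a calcium-activated cation channel, fell by 1.61 on the log2 scale (SE 0.39, limma adjusted p 0.00294), and its highest tumor (465) just overlapped its lowest normal lung (464).

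**Figure D4:**
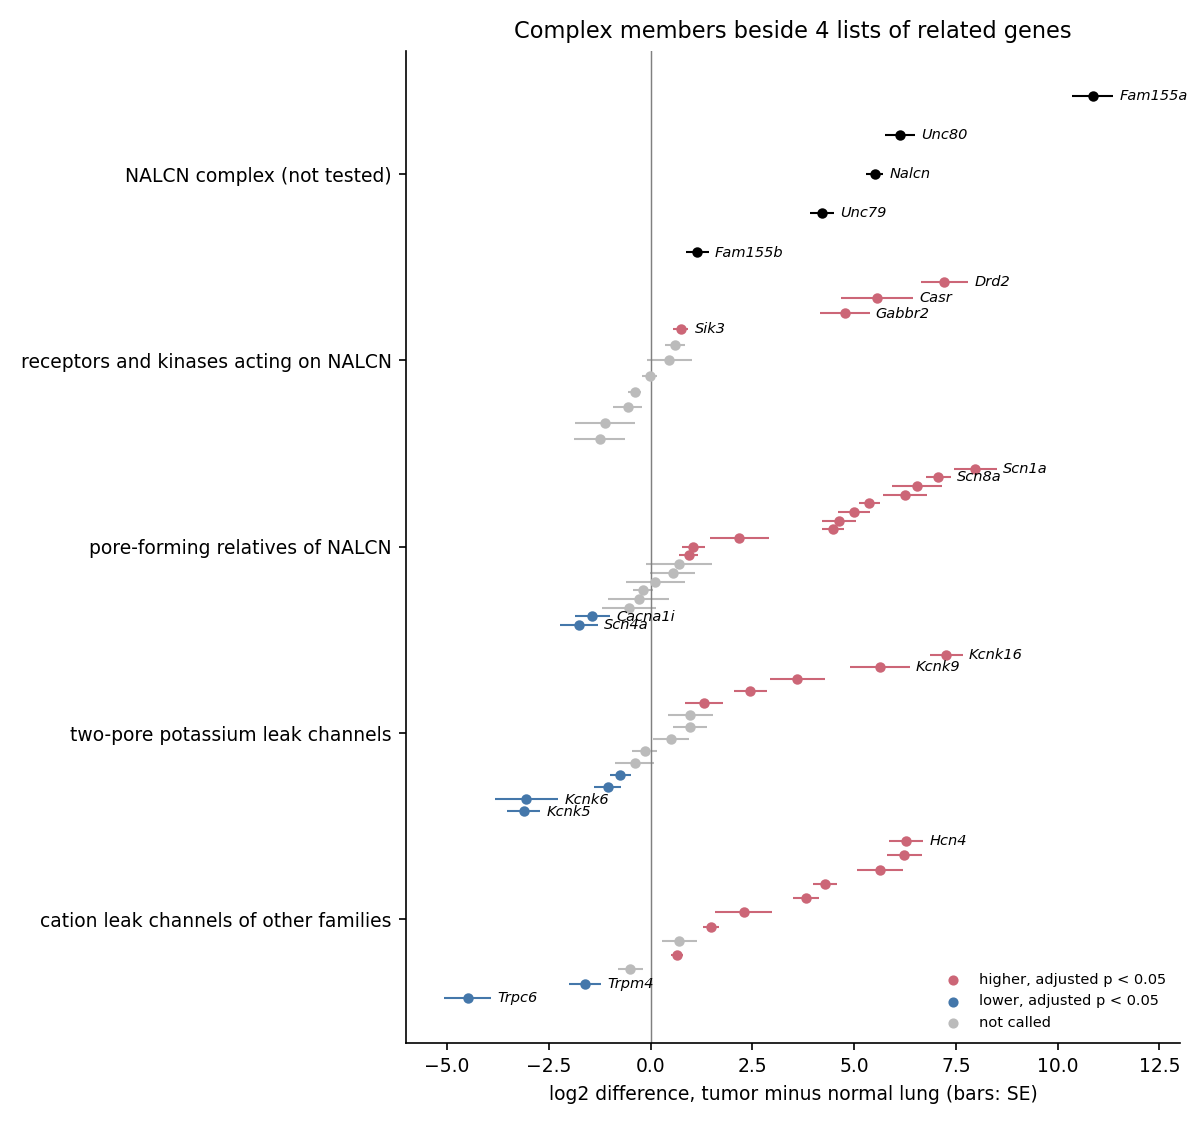
Log2 difference, tumor minus normal lung, for the 5 members (black, not tested) and for the genes of 4 lists, with bars of 1 SE. Red marks genes higher and blue genes lower at an adjusted p under 0.05 in limma, and grey marks genes not called. The members run from 1.15 (Fam155b) to 10.86 (Fam155a), and the K2P list (labelled two-pore) spreads to both sides of 0.

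The genes most like the pore in their pattern over the 7 tumors were sought by Pearson's r of log2 values among 5472 genes of sufficient level and variation, as a description over 7 tumors that share the same libraries. For Nalcn they were Gm41505 (r = 0.955), Gm15860 (0.931), Stxbp5l (0.923) and Phex (0.917). Gm41505 and Gm15860 are annotated as antisense transcripts, and neither overlaps a member of the complex in GENCODE M21. Without knowledge of strand in the counting, their reads cannot be told apart from those of genes on the other strand. Gm41505 had 0 to 6.90 normalized counts in normal lung and 245 to 787 in tumors, and Stxbp5l, a relative of a syntaxin-binding protein, 0 to 2.58 and 363 to 1522. Phex, an endopeptidase, overlapped between the groups at 38.1 to 137 and 45.5 to 142.

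For Fam155a the most alike were Hs6st3 (r = 0.976), Ap3b2 (0.960), Focad (0.957) and Asxl3 (0.956). Ap3b2, a neuronal subunit of an adaptor for vesicle sorting, went from 0 to 6.46 normalized counts in normal lung to 980 to 2933 in tumors. Asxl3, a chromatin regulator, went from 6.45 to 18.3 to 419 to 1079. Hs6st3, a heparan sulfate sulfotransferase, and Focad were present in normal lung at 360 to 619 and 88.8 to 199, and ran from 789 to 3204 and from 498 to 2213 in tumors. No gene was among the 4 most alike of both Nalcn and Fam155a.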

How the data were processed

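Poly-A RNA from 5 normal lungs and 7 tumors was sequenced as paired ends, per the labels. The authors deposited normalized counts as a signal per Ensembl gene. The submitters' processing notes name featureCounts, DESeq2 and GRCm39. The aligner, annotation and strand setting are not given in the sources used here. In each sample 100% of values were whole multiples of 1 step, the worth of 1 read, within 0.1 reads, and size factors ran from 0.619 to 1.58. The count tests left out tumor 3, whose step of 0.991 is too near 1 to be told from other rounding by the criterion used. Samples were grouped by tissue label. Replicate numbers follow the order of listing and pair nothing. Nothing says that samples come from separate mice, so p-values measure the spread between these samples. None of 25 same-group pairs looked like 1 library listed more than once: chi-square over its degrees of freedom was at least 18.4.

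The main test was limma 3.58.1 (R 4.3.3; lmFit, eBayes with trend) on log2(normalized count + 1) over genes with a mean of at least 1, with Benjamini-Hochberg adjustment over all of them. Fold changes on this scale understate the change of low genes. Alternatives were another pseudocount, other filters, equal totals, edgeR 4.0.16 and DESeq2 1.42.0 on recovered reads of 11 samples (called at the same threshold), same-numbered tumors averaged, and samples left out. The scripts were tested on simulated data. Names came from GENCODE M21, which held 29982 of 30399 identifiers, and RefSeq.

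The members and lists were chosen with earlier results of these data known. Besides the members, the text names up to 4 called genes a list with the largest differences in either direction, and the 4 genes most like Nalcn and Fam155a among those with a mean log2 level of at least 6 and an SD of at least 0.5 over the tumors. Of the list genes this rule picks, 1 is not reported here. The marker lists not described in the report had these summed levels in normal lung and tumors. Autonomic neuron markers (9 of 10 in the table) ran from 56.5 to 107 and from 5344 to 15224, and 6 of 9 were above in every tumor. Schwann cell markers (8) ran from 1292 to 1634 and from 208 to 713, and Erbb3 alone had 1124 to 1370 in normal lung. Of these 8 markers, 2 were above and 2 below in every tumor. Their mean log2 levels overlapped, at 3.46 to 5.07 in normal lung and 3.43 to 5.37 in tumors. Fibroblast and smooth muscle markers (10) ran from 15366 to 29459 and from 3322 to 32202, cardiac muscle markers (7 of 8) from 492 to 4624 and from 595 to 40942, endothelium markers (7) from 62605 to 72430 and from 2470 to 7437, and leukocyte markers (7 of 8) from 6154 to 10887 and from 245 to 7206.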

Additional observations from a re-analysis of the deposited data

Results flagged for a closer look

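A check covered 42 sets of replicate values (5 members and 16 named list genes, each in both groups). By Dixon's criterion, 2 samples stood apart from the rest of their group. For normally distributed values, chance alone meets this criterion in about 1 of 20 groups. Both were channel genes at the edge of detection in normal lung 5. Scn1a had a log2(normalized count + 1) of 1.72 there, from 2 reads, and was at 0 in the other normal lungs. Kcnk9 had a value of 1.10, from 1 read, and was likewise at 0 in the others. Where all other values are 0, any nonzero count meets the criterion, so the rate of 1 in 20 does not hold for these genes. No member had such a sample in either group.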

How the results depend on the processing

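The tumor minus normal differences of the 5 members and of the 16 named list genes kept their sign under each of the alternatives that gave a value, up to 21 a gene. When each sample was left out in turn, Nalcn ranged from 5.43 to 5.61, Fam155a from 10.28 to 11.22, Fam155b from 1.01 to 1.30, Unc79 from 4.01 to 4.38 and Unc80 from 5.89 to 6.36, and a pseudocount of 0.1 gave 11.68 for Fam155a. Equal library totals moved the median of all genes by 0.19. Among calls, Kcnk6 was lost with edgeR (-1.52). Kcnk2 was lost with edgeR, DESeq2, equal totals, same-numbered tumors averaged, and without normal lung 2 or normal lung 4. Kcnk15 was lost with DESeq2 and without normal lung 2. Cacna1e was lost with same-numbered tumors averaged (limma adjusted p 0.104), which left 10 higher genes among the pore-forming relatives. The receptor and kinase list had 1 lower gene with a mean of at least 10 and 3 without the trachea-titled tumors, and 0 to 2 when samples were left out in turn (Tacr1 and Src without tumor 1, Sik1 without tumor 7). The K2P list had 3 higher genes with a mean of at least 10, 7 without the trachea-titled tumors, and 4 to 6 when samples were left out in turn. It had 2 lower genes with edgeR and 2 with DESeq2. The median of the K2P list was 0.18 with a mean of at least 10, and that of the other cation channels was 2.35 with a pseudocount of 0.1 and 2.48 with DESeq2. Trachea-titled against lung-titled tumors gave 293 genes with DESeq2 (168 higher, 125 lower) and 0 to 290 when tumors were left out in turn, and the difference of Unc80 then ran from -0.99 (without tumor 1) to 0.03 (without tumor 7), where the trachea side is 1 tumor assumed to vary like the others. The cause of these changes was not tested. The fit on the 11 samples with recovered reads and the set of genes next to the members were chosen after seeing the data. No paired analysis was possible because the labels give the groups no shared replicate numbers. Protein comparisons were not run.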

Other observations

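The nearest protein-coding genes on either side of each member (GENCODE M21, tested genes, chosen after seeing the data) were read to see what lay around the complex. Of these 10 genes, 7 were higher and 2 lower in tumor by limma (adjusted p under 0.05), beside 31.4% and 30.1% of all genes. Next to Unc80, Map2, a microtubule-associated protein of dendrites, rose from 268 to 314 normalized counts in normal lung to 3528 to 9070 in tumors (log2 difference 4.14, SE 0.22, limma adjusted p 4.67e-09), whereas Rpe on the other side, an enzyme of the pentose phosphate pathway, fell by 1.31 on the log2 scale (SE 0.24). Next to Unc79, Prima1, which anchors acetylcholinesterase to the membrane, rose by 2.60 (SE 0.39) and Btbd7 fell by 0.75 (SE 0.14). Next to Nalcn, Itgbl1 and Tmtc4 rose by 2.58 (SE 0.30) and 0.98 (SE 0.32).

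The genes beside Fam155a moved least. Arglu1 rose by 0.47 (SE 0.14), and Lig4, a DNA ligase of end joining, was at 235 to 352 normalized counts in normal lung and 198 to 507 in tumors, a difference of 0.12 (SE 0.25, limma adjusted p 0.695), beside 10.86 for Fam155a itself. Next to Fam155b, Pja1 and Eda rose by 0.64 (SE 0.16) and 1.06 (SE 0.33), beside 1.15 for Fam155b.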
